A study of Mus musculus with 10 samples.

Results

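A set of 10 genes that mark muscle stem cells, commit their progeny to the muscle lineage or let the progeny fuse were followed in 2 hindlimb muscles, with 6 satellite cell markers (Pax7, Pax3, Myf5, Cdh15, Megf10 and Chrdl2), 3 genes of differentiation and fusion (Myod1, Myog and Mymk) and the factor of the mature fiber, Myf6. They were found by their symbol in the platform annotation of the value table, where each of the 10 had 1 probe set, out of 19938 genes measured. Satellite cells are the stem cells of adult muscle; they lie under the basal lamina of the fiber and are kept by the paired box factors Pax7 and Pax3. When they are activated, the basic helix-loop-helix factors Myf5 and Myod1 set the muscle lineage, Myog drives terminal differentiation, and the membrane protein myomaker (Mymk) lets the resulting myoblasts fuse. Nuclei inside a fiber can also transcribe Myod1 and Myog, as after loss of the nerve, so neither gene marks precursor cells alone.

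Whole-transcript arrays (Mouse Gene 1.0 ST) had been hybridised with RNA of 10 muscles from mice labelled C56BL6N and 8 weeks old. In tibialis anterior (TA), 10 µg of plasmid had been electroporated and the GFP-positive fibers dissected 2 weeks later. There were 2 arrays for the control vector (named in the study's methods as an shRNA against LacZ in the muscle of the opposite leg) and 2 for shlincMYH, an shRNA against the long noncoding RNA linc-MYH. In whole gastrocnemius, 3 arrays came from mice labelled wild type and 3 from conditional knockout (KO) mice, in which a floxed gene is deleted by Cre under the human skeletal actin promoter. That promoter is active in fibers, so satellite cells are not its target. Because the TA samples were dissected fibers and the gastrocnemius samples whole muscle, and because log2 signal differed in its distribution between them (array medians 5.09 to 5.14 in TA and 6.60 to 6.67 in gastrocnemius), every level was compared only within its own tissue. The knockdown was aimed at a stretch of linc-MYH that is shown to identify the reagent.
shRNA target in linc-MYH: ttctgctcaccacctacaatt

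The targeted transcripts were not analysed here, and the labels were therefore not checked against them. Markers of fast fibers stood among the brightest genes on all 10 arrays: Myh4, Ckm, Actn3, Pvalb and Tnni2 lay at or above the 99.66th percentile of all genes. The methods state that transfected muscles of a condition came from different mice, but the labels tie no array to an animal, so p-values measure only the spread between these samples. In bulk RNA of this kind, fewer cells of a type and less RNA per cell cannot be told apart.

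The satellite cell markers were dim in TA. With no detection calls in the table, olfactory receptor genes, which muscle does not use, served as the yardstick on each array. In TA the 95th percentile of 1027 such genes lay at a log2 signal of 4.81 to 4.90, and Cdh15, Megf10, Chrdl2 and Pax3 lay close to it on both control arrays or on both shlincMYH arrays. Megf10 in shlincMYH replicate 2 lay above 93.4% of the olfactory receptor genes, the lowest share for any of the 10 genes. Only Pax7 and Myf5 among the 6 markers exceeded at least 98.2% of them on every TA array. In gastrocnemius 5 of the 6 markers exceeded at least 98.1% on every array, and Pax3 exceeded 93.5% to 96.4%. Pax3, which marks satellite cells of only some adult muscles, therefore had a signal near that of unexpressed genes in both tissues. Myf6 was above all olfactory receptor genes on all 10 arrays.

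**Figure D1:**
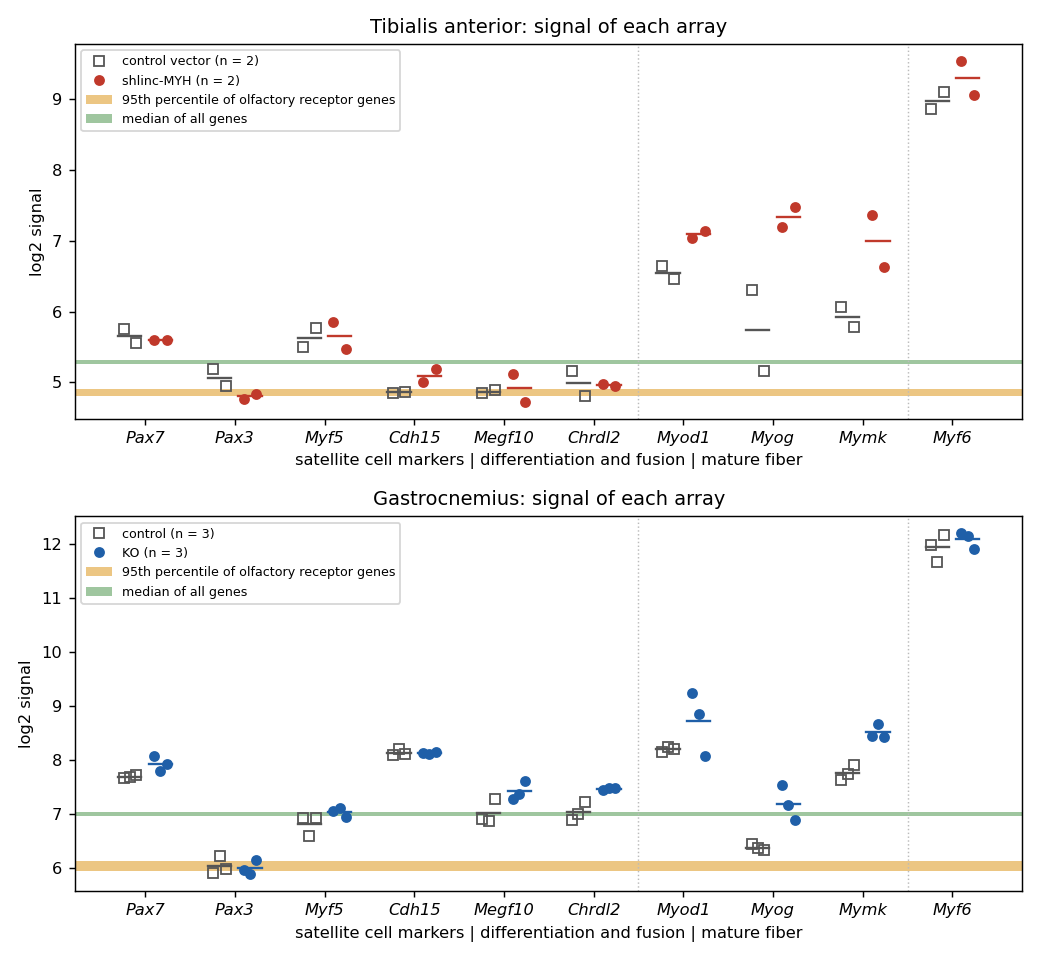
Log2 signal of the 10 genes on each array of TA (upper) and gastrocnemius (lower), with open squares for control, filled circles for treated or mutant arrays and a short line at the group mean. The bands span, over the arrays, the 95th percentile of olfactory receptor genes and the median of all genes; in TA, 4 satellite cell markers sit near the lower band while Myod1, Myog and Mymk are higher in both shlincMYH arrays than in both controls.

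In TA expressing shlincMYH, the 3 genes of differentiation and fusion had higher values than in control TA, and the 6 satellite cell markers showed no shared direction. None of the 10 genes passed limma at an adjusted p under 0.05, where 0.015% of all genes did, and 3 of the 10 (Myog, Mymk and Myod1) were higher at an unadjusted p under 0.05, against 4.27% of all genes; none was lower at that level, against 4.37%. The 2 groups did not overlap, with shlincMYH higher, for Myog, Mymk, Myod1 and Cdh15 (4 of 10, against 16.3% of all genes). They did not overlap in the other direction for Pax3 (1 of 10, against 23.0%). Values were above 0 in 7 of the 10, against 43.7% of all genes, and the median log2 fold change was 0.14 over the 10 genes and -0.03 over all genes.

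Myog, the factor of terminal differentiation, read 6.31 and 5.16 in control TA and 7.19 and 7.48 with shlincMYH. The control arrays were further apart than the shlincMYH arrays, and both shlincMYH values were above both controls. On control replicate 2 Myog exceeded 97.0% of the olfactory receptor genes, so that value, like those of the dim markers, lay near their signal. The difference was 1.60 on the log2 scale (SE 0.35, a 3.03-fold higher signal, limma adjusted p = 0.423, n = 2 and 2). Without control replicate 2, the lower of the controls, it was 1.03, and without control replicate 1 it was 2.17. When all 10 arrays shared 1 estimate of the spread, the adjusted p from limma was 0.045 for the same difference.

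For Mymk the control values were 6.06 and 5.78 and the shlincMYH values 7.36 and 6.64. Again no shlincMYH array reached down to the controls, but the 2 arrays differed from each other. The log2 fold change was 1.08 (SE 0.25, 2.11-fold, limma adjusted p = 0.431), and it too passed in the fit of all 10 arrays (adjusted p = 0.0451). Without shlincMYH replicate 1 it was 0.71, and without shlincMYH replicate 2 it was 1.44. Myod1, which commits cells to the muscle lineage, gave 6.64 and 6.46 in control TA and 7.04 and 7.14 with shlincMYH. The groups were apart and each was tight. Its log2 fold change was 0.54 (SE 0.13, limma adjusted p = 0.434).

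Pax7, the defining factor of satellite cells, read 5.76 and 5.56 in control TA and 5.60 and 5.59 with shlincMYH. Both shlincMYH values lay between the controls. The log2 fold change of -0.06 had a 95% interval of -0.36 to 0.25, so a difference of the size estimated for Myog lay outside the interval. Myf5, the earliest of the myogenic factors and present in many satellite cells, read 5.49 and 5.77 against 5.85 and 5.47, with full overlap. For Megf10, a receptor of satellite cells, the values were 4.85 and 4.89 in control against 5.11 and 4.73, and for Chrdl2, a secreted BMP antagonist, 5.16 and 4.81 against 4.97 and 4.95. In neither gene were the groups apart. Their log2 fold changes and that of Myf5 ranged from -0.02 to 0.05.

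Pax3 read 5.18 and 4.95 in control TA and 4.76 and 4.84 with shlincMYH, a log2 difference of -0.27 (SE 0.13, limma adjusted p = 0.639). Cdh15, the M-cadherin that holds satellite cells to the fiber, gave 4.86 and 4.87 against 5.00 and 5.19, a log2 difference of 0.23 (SE 0.13, limma adjusted p = 0.658). In each gene the groups were apart by little, at signals close to those of the olfactory receptor genes. Myf6, the most abundant myogenic factor of adult fibers, read 8.86 and 9.10 in control and 9.54 and 9.06 with shlincMYH, where only shlincMYH replicate 1 was above both controls. Its log2 fold change was 0.32 (SE 0.19, limma adjusted p = 0.691).

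In gastrocnemius of KO mice, Myog and Mymk rose: limma called 2 of 10 genes, where it called 1.74% of all genes. Split by direction, 2 of 10 were higher, against 0.908%, and 0 were lower, against 0.833%. At an unadjusted p under 0.05, 5 of the 10 were higher (Myog, Mymk, Chrdl2, Megf10 and Pax7), against 8.44% of all genes, and none was lower, against 6.5%. The KO and control arrays did not overlap, with KO higher, for these 5 and for Myf5, which makes 6 of 10 against 11.0% of all genes. No gene of the 10 was apart in the other direction, against 9.85%. Values were above 0 in 8 of the 10, against 52.8% of all genes, and the median log2 fold change was 0.32 over the 10 genes and 0.01 over all genes.

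Mymk read 7.63, 7.73 and 7.90 in control gastrocnemius and 8.44, 8.67 and 8.43 in KO. Every KO array was above every control, and both groups were tight. The log2 fold change was 0.76 (SE 0.10, 1.69-fold, limma adjusted p = 0.0139, n = 3 and 3). The call was lost without control replicate 1 (adjusted p = 0.0533), control replicate 2 (0.0678) or KO replicate 2 (0.0548), at log2 fold changes of 0.68 to 0.75.

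For Myog, control gastrocnemius gave 6.43, 6.36 and 6.32, below the median of all genes on those arrays, and KO gave 7.53, 7.16 and 6.89. The control values exceeded 97.4% to 97.9% of the olfactory receptor genes, so they too lay near the signal of unexpressed genes. KO replicate 3 was the nearest to the controls but still above them. The log2 fold change was 0.82 (SE 0.15, limma adjusted p = 0.0395). Leaving out any control array or KO replicate 1 or 2 ended the call (limma adjusted p = 0.06 to 0.156), while the log2 fold change stayed between 0.65 and 0.85 in those fits.

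Myod1 split the KO arrays: the controls read 8.15, 8.23 and 8.20 and the KO arrays 9.24, 8.86 and 8.06. KO replicates 1 and 2 were above all controls and KO replicate 3 below all of them. With all 6 arrays the log2 fold change was 0.53 (SE 0.25, limma adjusted p = 0.395), without KO replicate 3 it was 0.85 (adjusted p = 0.0161), and without KO replicate 1 it was 0.27 (adjusted p = 0.748). KO replicate 3 was also the lowest of the KO arrays for Myog and, by a narrow margin, for Mymk, and the highest for Megf10.

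**Figure D2:**
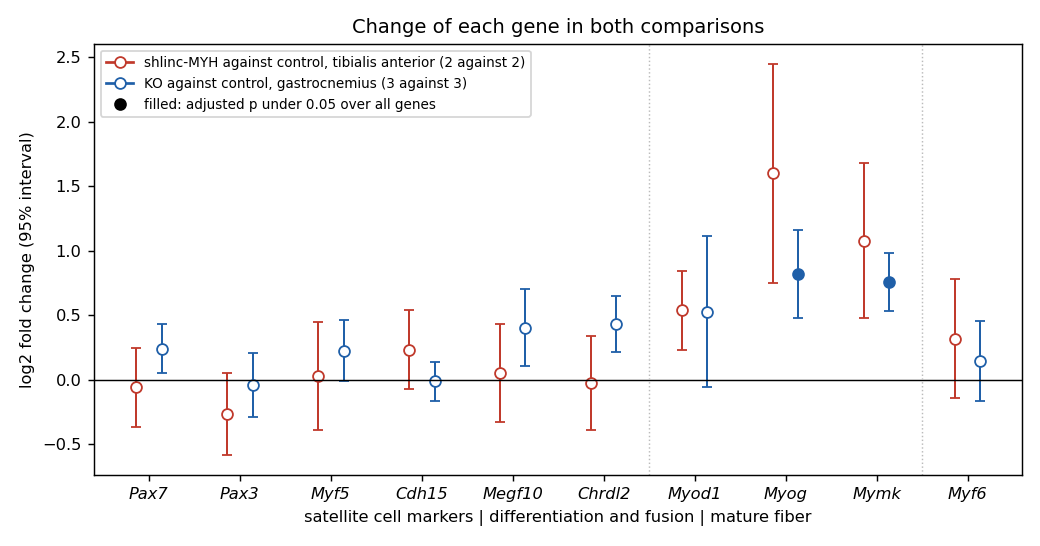
Log2 fold change of each gene with its 95% interval from limma, for shlincMYH against control TA and KO against control gastrocnemius, with filled points for an adjusted p under 0.05. The highest points in both comparisons are Myog and Mymk, and only their gastrocnemius points are filled; the satellite cell markers lie between -0.27 and 0.43.

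The 6 satellite cell markers divided in gastrocnemius. Chrdl2 read 6.88, 7.00 and 7.22 in control and 7.44, 7.48 and 7.47 in KO. The KO arrays were nearly equal and all above the controls. Its log2 fold change of 0.43 (SE 0.09) missed the threshold in limma (adjusted p = 0.0724), and passed it without control replicate 3 (0.0409), with array weights (0.0215) or when the dimmer genes were left out (0.0459). Pax7 gave 7.67, 7.68 and 7.72 in control and 8.08, 7.80 and 7.92 in KO. No KO array reached the controls, although KO replicate 2 was close. The log2 difference of 0.24 (95% interval 0.05 to 0.43) had an adjusted p of 0.22 in limma.

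Megf10 values were 6.91, 6.87 and 7.28 against 7.28, 7.37 and 7.62, so that control replicate 3 nearly met KO replicate 1. The log2 difference was 0.40 (SE 0.13, limma adjusted p = 0.195). Myf5 gave 6.91, 6.59 and 6.92 against 7.05, 7.10 and 6.94, a log2 difference of 0.23 (limma adjusted p = 0.364) in which KO replicate 3 and control replicate 3 were almost level. Cdh15 and Pax3 showed no such separation. Cdh15 read 8.08, 8.21 and 8.11 in control and 8.12, 8.10 and 8.14 in KO, with a 95% interval for the log2 difference of -0.16 to 0.14. Pax3 read 5.90, 6.22 and 5.98 against 5.95, 5.89 and 6.15. The markers of 1 cell type thus had values from -0.04 (Pax3) to 0.43 (Chrdl2) in the same arrays. Myf6 read 11.99, 11.67 and 12.17 in control and 12.20, 12.15 and 11.91 in KO, with overlap and a log2 fold change of 0.15 (limma adjusted p = 0.714).

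Set against each other on each array, the role groups differed from control by different amounts. The mean of Myod1, Myog and Mymk, taken relative to the control mean of the tissue, was 1.13 and 1.01 on the shlincMYH arrays, while the mean of the 6 satellite cell markers was 0.04 and -0.05. Control TA arrays stood at 0.27 and -0.27 for the differentiation and fusion genes and at 0.04 and -0.04 for the markers. The shlincMYH arrays were thus outside the control range for 1 group of genes and near or inside it for the other. The difference between the role groups averaged 1.08 ± 0.02 (SD, n = 2). In control its mean is 0 by construction, with an SD of 0.33 (n = 2) that the 0.02 leaves out. Single genes were less even on the 2 shlincMYH arrays: Mymk stood at 1.44 and 0.71 and Myog at 1.46 and 1.74. Of the 6 markers, Cdh15, Megf10, Chrdl2 and Pax3 lay near the signal of unexpressed genes in TA, where RMA compresses differences. A change in them could therefore be missed.

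In KO gastrocnemius both means lay above all 3 controls. The mean of Myod1, Myog and Mymk was 0.96, 0.79 and 0.35 on the KO arrays and -0.04 to 0.04 on the controls, and that of the satellite cell markers 0.20, 0.17 and 0.25 against -0.06 to 0.09. The difference between the role groups averaged 0.49 ± 0.35 (SD, n = 3), with 0.76 and 0.62 in KO replicates 1 and 2 and 0.10 in KO replicate 3. On KO replicate 3, therefore, the mean of Myod1, Myog and Mymk exceeded that of the markers by little more than on any control array. The highest difference on a control array was 0.03. Myod1 lowered the mean there (-0.13), while Myog (0.51) and Mymk (0.67) were above every control and above the marker mean of 0.25. These means over chosen genes carry no test.

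**Figure D3:**
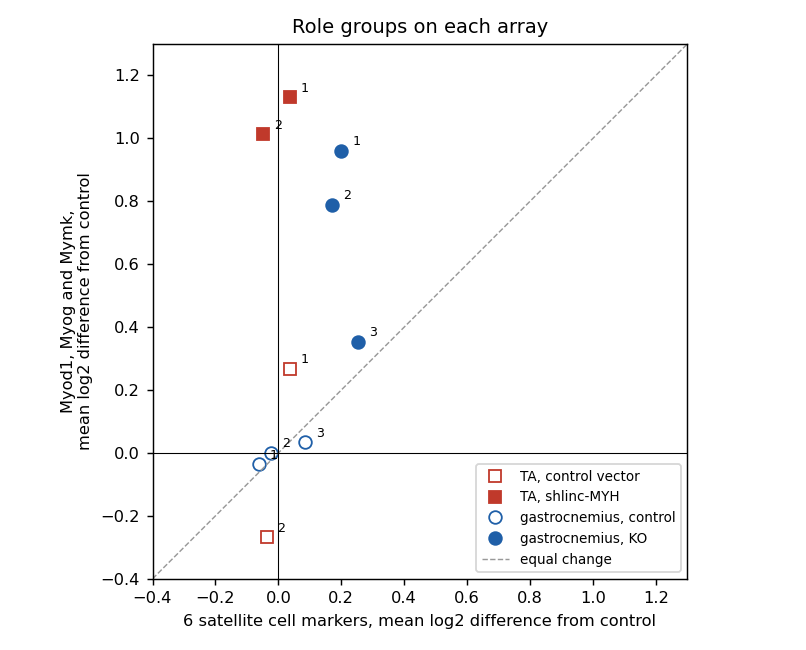
Mean log2 difference from the control mean of the tissue for the 6 satellite cell markers (horizontal) and for Myod1, Myog and Mymk (vertical), with 1 point per array, the replicate number beside it and a dashed line where both would be equal. The 2 shlincMYH arrays stand at 1.01 and 1.13 on the vertical axis and near 0 on the horizontal one, and KO replicate 3 (0.25, 0.35) is the treated array nearest to the dashed line.

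The change with shlincMYH in TA was set against the change in KO gastrocnemius by the difference of the log2 fold changes, TA minus gastrocnemius, in 1 fit. The 2 comparisons differ in treatment, muscle and kind of sample (dissected fibers or whole muscle), and this difference cannot tell them apart. No member passed in limma (0 of 10, against 0.145% of all genes), and 1 of 10 (Chrdl2) was lower at an unadjusted p under 0.05, against 7.1% of all genes, with none higher, against 5.21%. The difference was 0.78 for Myog (95% interval -0.08 to 1.64) and 0.32 for Mymk (-0.26 to 0.90). For Pax7 it was -0.30 (-0.61 to 0.01) and for Chrdl2 -0.455 (-0.84 to -0.07, limma adjusted p = 0.322). The wide intervals leave a difference of either sign possible for Myog and Mymk. Myog and Mymk were the 2 members whose treated arrays were all above the controls in both tissues, which held for 2.62% of all genes. The 2 comparisons share no control arrays.

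Because Myog led both comparisons and Pax7 is the defining marker, the 250 bases before their RefSeq transcript starts (GRCm38.p6) are shown. Capitals mark E-boxes (CANNTG, which reads the same motif on both strands), the elements bound by myogenic factors, and MEF3 sites, a second kind of element known from promoters of muscle genes. For MEF3, the 14 distinct sequences in the list of sites tabulated by the study were searched on both strands, GAAACCTGA being the first listed. The Myog stretch is chr1:134289754-134290003, plus strand, and the Pax7 stretch is chr4:139832969-139833218, minus strand.
Myog promoter: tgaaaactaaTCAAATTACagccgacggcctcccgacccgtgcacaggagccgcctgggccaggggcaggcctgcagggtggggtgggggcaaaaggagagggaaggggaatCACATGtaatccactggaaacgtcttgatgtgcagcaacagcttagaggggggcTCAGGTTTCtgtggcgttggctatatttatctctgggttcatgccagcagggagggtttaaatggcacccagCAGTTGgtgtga
Pax7 promoter: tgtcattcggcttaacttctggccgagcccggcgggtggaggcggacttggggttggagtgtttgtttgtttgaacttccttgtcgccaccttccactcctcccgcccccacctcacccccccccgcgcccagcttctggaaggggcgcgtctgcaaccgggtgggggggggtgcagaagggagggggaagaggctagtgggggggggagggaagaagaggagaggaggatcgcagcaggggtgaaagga

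The Myog stretch held 2 E-boxes, at -138 to -133 and -12 to -7 from the start, and 2 listed MEF3 sequences on its minus strand. One, at -84 to -76, was the reverse complement of the first listed site (TCAGGTTTC on the printed strand), which 0.387% of the 32851 promoters of this length hold. The study names that site as the MEF3 consensus of Myogenin, so the list already held a sequence known from Myog. This match was therefore fixed in advance, and the share does not measure how rare a find it was. The other, TCAAATTAC, lay at -240 to -232. Any listed MEF3 sequence was found in 3.22% of the promoters and an E-box in 66.2%, with 31.8% holding at least as many E-boxes as Myog. The Pax7 and Myf5 stretches held neither motif, and that of Cdh15 held 3 E-boxes and no listed MEF3 sequence. These 4 were the members with a promoter in the table used; Pax3, Megf10, Chrdl2, Myod1, Mymk and Myf6 were not among them. A match describes the letters only, and no binding was measured here.

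**Figure D4:**
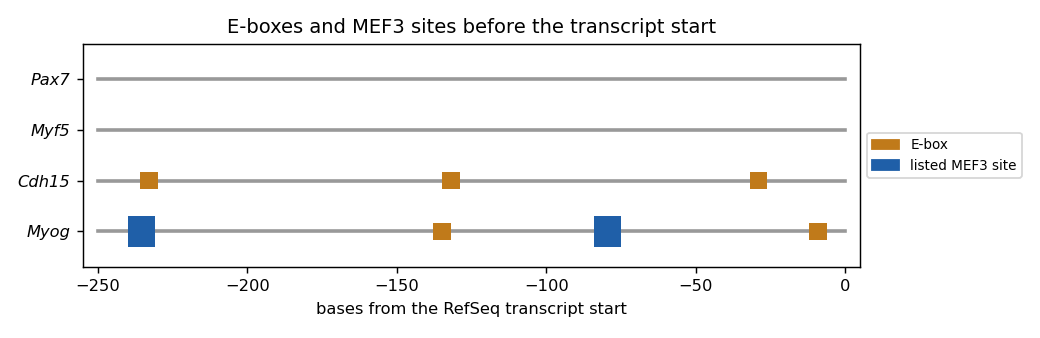
Position of E-boxes (orange) and listed MEF3 sequences (blue) in the 250 bases before the transcript start of the 4 genes with a promoter in the table, in bases from the start. Myog carries 2 of each, Cdh15 carries 3 E-boxes, and Pax7 and Myf5 carry neither.

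Genes known as targets of Myod1 and Myog, among them subunits of the acetylcholine receptor and sarcomere genes of development, had the highest median of the lists examined in both tissues. In gastrocnemius 5 of 18 rose in KO and none fell by limma (against 0.908% and 0.833% of all genes), with a median log2 fold change of 0.57 against 0.01 over all genes. At an unadjusted p under 0.05, 11 were higher and 1 lower (against 8.44% and 6.5% of all genes). Values ranged from -0.55 to 1.53, and 5 of the 18 were below 0. Chrng, the fetal receptor subunit, rose by 1.11 (SE 0.13, limma adjusted p = 0.0103), Gadd45a, a gene induced by denervation, by 1.06 (adjusted p = 0.00954), and Chrnd by 0.71 (adjusted p = 0.0284). Myh8 and Tnnt2, named after their values were seen, were the other two that passed. Without KO replicate 2 all 3 calls given here were lost (limma adjusted p = 0.0502, 0.0502 and 0.0748), as was that of Chrng without control replicate 2 (0.0526) and that of Chrnd without any 1 control array (0.0664 to 0.13). In TA none of the 18 passed, 12 were higher at an unadjusted p under 0.05 (against 4.27% of all genes), and the median was 0.95 against -0.03. Chrng there read 5.33 and 5.03 in control and 6.48 and 6.51 with shlincMYH, a log2 fold change of 1.32 (limma adjusted p = 0.111), and Myh3, the embryonic myosin, had 1.81 (adjusted p = 0.14). The shlincMYH arrays were above both controls in each of these 2 genes.

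Other genes of the satellite cell surface, Notch signaling and growth factor receptors had values near 0 in TA and mostly above 0 in gastrocnemius. In TA 0 of 19 passed, with a median of -0.01. At an unadjusted p under 0.05, 1 was higher and 1 lower (against 4.27% and 4.37% of all genes). Values were 0.56 for the laminin receptor subunit Itga7 and -0.47 for the receptor Met. In gastrocnemius 1 of 19 rose, Sdc4 (syndecan-4, a co-receptor on satellite cells), by 0.62 (SE 0.09, limma adjusted p = 0.0213), against 0.908% of all genes, and the median was 0.26. That call was lost without control replicate 2 or 3 or KO replicate 1 or 2 (limma adjusted p = 0.0645 to 0.102). Notch2 (0.53) and the calcitonin receptor Calcr (0.47) had limma adjusted p-values of 0.0751 and 0.0782, with all KO arrays above all controls.

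Adhesion and signaling genes of myoblast fusion other than Mymk gave 0 of 22 calls in either tissue by limma. Their medians were -0.04 in TA and 0.06 in gastrocnemius. At an unadjusted p under 0.05, 3 were lower in TA (Jam2, Dock1 and Elmo1, against 4.37% of all genes) and 0 higher (against 4.27%). In gastrocnemius 5 were higher at that level (against 8.44%) and 0 lower (against 6.5%). Mymk thus stood at 0.76 in gastrocnemius beside a range of -0.19 to 0.41 for these 22 genes. Of 25 partners, inhibitors and upstream regulators of the myogenic factors, 3 rose in gastrocnemius and none fell by limma (against 0.908% and 0.833% of all genes): Six4 (0.54, adjusted p = 0.0153), a homeobox factor, Eya4 (0.66, adjusted p = 0.0261), a transcriptional cofactor, and Hdac4 (0.67, adjusted p = 0.0387), a deacetylase that represses targets of Mef2. Leaving out 1 array ended the call of Six4 for control replicate 1 or 3 and KO replicate 1 or 2 (limma adjusted p = 0.0508 to 0.0755), of Eya4 for control replicate 1 or 2 and KO replicate 1 or 2 (0.0634 to 0.106), and of Hdac4 for all but KO replicate 3 (0.0744 to 0.125). In TA none of the 25 passed, and 3 were lower at an unadjusted p under 0.05 (Six5, Dach2 and Six2, against 4.37% of all genes), with a median of -0.04.

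Genes of dividing cells, like the mean of the satellite cell markers, had higher values in KO gastrocnemius than in control. All 14 had values above 0 (against 52.8% of all genes), and 5 rose by limma (against 0.908%), among them Top2a by 0.63 (adjusted p = 0.00715), Mki67 by 0.74 (adjusted p = 0.0206) and Ccna2 by 0.79 (adjusted p = 0.0423); Bub1 and Rrm2, named after their values were seen, completed the 5. Without KO replicate 2 all 3 of the calls with values lost significance (limma adjusted p = 0.0502, 0.077 and 0.0919), Mki67 also without control replicate 1 or 2 or KO replicate 1 (0.0671 to 0.0969) and Ccna2 without any 1 array but control replicate 3 (0.0545 to 0.168). With the mean of its probe sets Top2a was 0.25 (adjusted p = 0.164). The mean of the 14 stood at 0.37 to 0.55 on the KO arrays and -0.09 to 0.09 on the controls. In TA 0 of 14 passed and the median was -0.05. At an unadjusted p under 0.05, 1 was higher and 2 lower there (against 4.27% and 4.37% of all genes). Which cells these transcripts came from was not measured.

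Markers of other cell types were read beside these values, as means relative to control. In KO gastrocnemius the 10 macrophage markers were all above 0, against 52.8% of all genes. Of them 1 was called higher, against 0.908% (Mrc1, 0.77, limma adjusted p = 0.0139, and 0.0678 without control replicate 2). Their mean was 0.32 to 0.84 on KO arrays, highest on KO replicate 1, against -0.13 to 0.08 on controls. KO replicate 1 was also the highest KO array for Pax7, Myod1, Myog and Myf6. Mymk, Myf5 and Chrdl2 were highest on KO replicate 2, and Megf10, Cdh15 and Pax3 on KO replicate 3. The 7 fibroblast markers were likewise all above 0 (mean 0.32 to 0.42 against -0.14 to 0.20, 0 called). Other leukocyte markers had a mean of 0.03 to 0.23 against -0.05 to 0.09 and Schwann cell markers 0.07 against -0.05 to 0.05. Of 6 leukocyte markers, 3 were below 0. Ptprc had 0.79 (limma adjusted p = 0.118), with all KO arrays above all controls and KO replicate 1 highest. Cd3d and S100a8 exceeded only 52.0% to 73.3% of olfactory receptor genes in gastrocnemius. Endothelial markers had -0.01 to 0.09 against -0.13 to 0.23, and smooth muscle and pericyte markers -0.06 to -0.02 against -0.07 to 0.08. Fast fiber markers had -0.19 to -0.11 against -0.02 to 0.02. All 8 were below 0 (52.8% of all genes were above 0). Pvalb had -0.41 (limma adjusted p = 0.0525), with all KO arrays below all controls. None of these lists had a call. In TA the 10 endothelial markers were all below 0 (mean -0.86 and -0.31 on shlincMYH arrays against -0.04 and 0.04). So were the 6 smooth muscle and pericyte markers (-0.64 and -0.31 against -0.34 and 0.34), where 43.7% of all genes were above 0. At an unadjusted p under 0.05, 7 of the 10 and 2 of the 6 were lower (against 4.37% of all genes). None of either list was higher at that level (against 4.27%). The macrophage, leukocyte and Schwann cell markers in TA lay within the range of the 2 controls on both shlincMYH arrays. Fibroblast markers did so on 1 shlincMYH array. Fast fiber markers did not (-0.26 and -0.04 against -0.02 and 0.02), and 7 of 8 were below 0. No cell type list had a call in TA. On a log2 array scale no marker is at 0, and the part of these cell types in the values of Pax7, Myog and the other members was not tested.

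**Figure D5:**
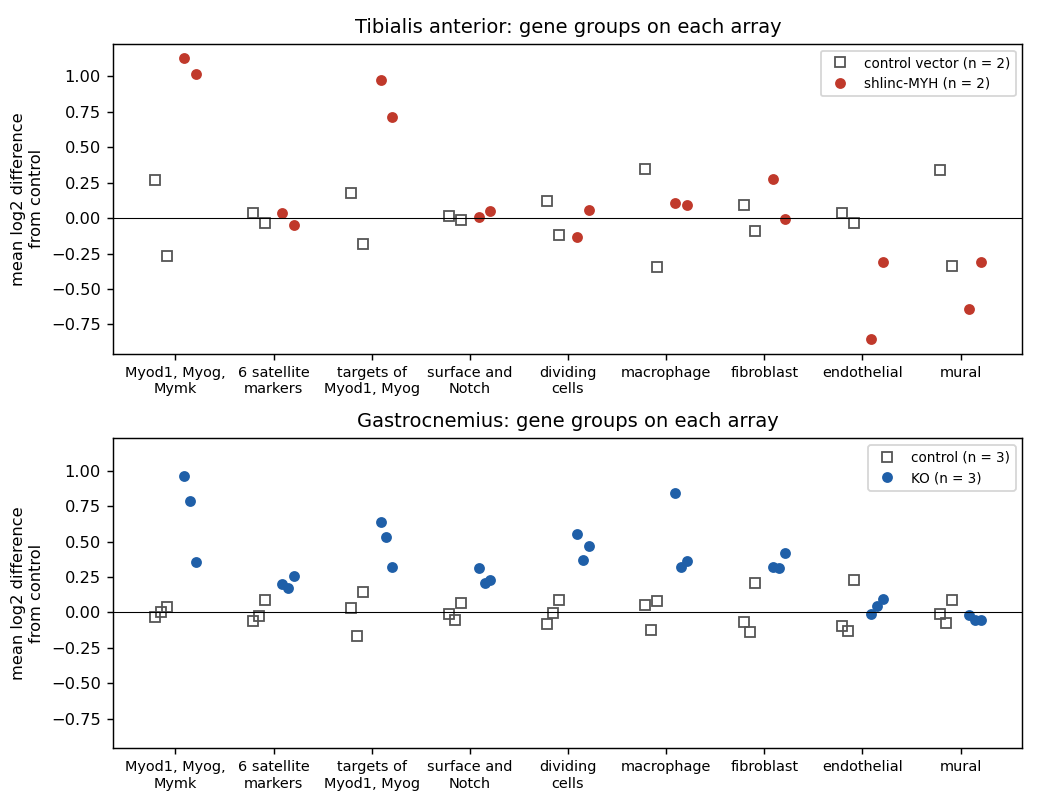
Mean log2 difference from the control mean of the tissue on each array for the role groups and 7 gene lists, in TA (upper) and gastrocnemius (lower), with open squares for control and filled circles for treated or mutant arrays. The means of Myod1, Myog and Mymk and of their targets are above all controls in both tissues. Those of satellite cell markers, dividing cell, macrophage and fibroblast genes are above all controls in gastrocnemius, and that of endothelial genes is below both controls in TA.

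Across all 10 arrays, each relative to the control mean of its tissue, the genes most like Myog were Ctsl (Pearson r = 0.99), Cttn, Tubb2b, Tnnc1 and Myl4 (r = 0.96 to 0.97). Of these, Tnnc1, the troponin C of slow and cardiac muscle, rose in KO gastrocnemius by 1.41 (limma adjusted p = 0.00596) and read 2.46 in TA (adjusted p = 0.471). The genes most like Pax7 were Frmd8 (r = 0.99), Plek, Ccr1, Retnlg and Csf2rb (r = 0.97 to 0.98); the last 4 are genes of leukocytes. These are descriptions over arrays that share their controls and tissue, and were the top 5 of all named genes by this measure.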

How the data were processed

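The deposited table holds log2 signals of 35556 probe sets on 10 Mouse Gene 1.0 ST arrays, which the authors obtained by RMA, with Partek also named in their processing notes; no versions are given in the sources used here. The methods and the labels differ on the ages of the mice and the labelling kit. RMA sets the arrays of a run to 1 distribution, so a shift shared by all genes would not be seen, and it compresses differences of dim probe sets; the tissues differed in distribution and were not compared in level. Probe sets with 1 symbol (21789; 1621 had several and 12146 none) were reduced to 19938 genes, keeping the probe set with the highest mean, and 21698 of these probe sets matched RefSeq (GRCm38.p6) by Entrez number. No array correlated with another as a duplicate would, and no background counts exist, so precision is limited by the number of arrays.

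Within each tissue, groups were compared by limma (version 3.58.1, run in R 4.3.3; linear model and empirical Bayes, without covariates, Benjamini-Hochberg adjustment over all genes, threshold 0.05); intervals are 95%. The difference of the comparisons came from 1 limma fit of 4 group means over all arrays. The members and gene lists were chosen with earlier results of these data known. Named genes were all 10 members, from every list at most 3 genes per comparison, by size of moderated statistic, and the 5 most correlated with Myog and with Pax7. Alternatives were quantile normalization, median centring, leaving out genes below the median, averaging probe sets, a robust prior with a trend on intensity, weighted arrays, a replicate block, all 10 arrays in 1 fit, the methods' t-test, and leaving out each array. The code was tested on simulated data. Python 3.11.15 with pandas 2.3.3 and matplotlib 3.10.9 made summaries and figures. The gene deleted in the KO mice is not reported here.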

Additional observations from a re-analysis of the deposited data

How the results depend on the processing

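Precision was limited by 2 arrays a group in TA and 3 in gastrocnemius, and 4 satellite cell markers in TA and Pax3 in both tissues lay near the signal of unexpressed genes. So did Myog on control replicate 2 of TA and on the gastrocnemius controls. Directions of the means of the role groups held under all alternatives run, except the satellite cell mean in TA, which was -0.0054, turned to 0.03 after quantile normalization or median centring, and ranged from -0.05 to 0.04 without 1 array. Of the 10 members, 0 passed in TA; 2 passed with all 10 arrays in 1 fit. In gastrocnemius 2 passed; 0 passed with all 10 arrays in 1 fit and 0 by the methods' t-test, and leaving out 1 array gave 0 to 3. Over all genes, 3 were called in TA, with 10 after median centring, 131 with all 10 arrays in 1 fit, 0 by the methods' t-test and 0 without any 1 array. In gastrocnemius 347 were called, with 543 under an intensity trend and robust prior, 989 with array weights, 4 by the methods' t-test and 51 (without KO replicate 2) to 560 (without KO replicate 3) when 1 array was left out. For the difference of the comparisons the count was 29, with 16 when dim genes were left out, 48 under the trend and robust prior, and 6 to 100 without 1 array; no member passed in any of these. The cause of these shifts was not tested. Myog in gastrocnemius lost its call with all 10 arrays in 1 fit (limma adjusted p = 0.178) and was left out of the fit without dim genes, and Mymk lost its call with all 10 arrays (0.0595). So did Eya4 (0.0913), Hdac4 (0.0842) and Top2a (0.0596) of the gene lists, Hdac4 also lost its call after median centring (0.052), and no member or list gene given with a value passed by the methods' t-test in gastrocnemius.

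The methods put the control plasmid in the opposite TA of the same mouse, but no source ties the array numbers to mice, and 2 pairs cannot settle it; values without a block follow the unpaired test of the methods. Deviations of same-numbered arrays correlated at 0.19 in TA and at 0.22, -0.14 and 0.08 in gastrocnemius. A replicate block gave 5 genes called in TA, where no member passed (Mymk had the lowest limma adjusted p of Myog, Mymk and Myod1, 0.148), and 186 in gastrocnemius, where Eya4, Hdac4 and Chrnd lost their calls (0.0633, 0.105 and 0.0579) and Mymk and Myog still passed (limma adjusted p = 0.038 and 0.0426).

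Some signs turned. Chrdl2 in TA was 0.011 after quantile normalization and 0.0072 after median centring, and the difference for Myod1 was -0.18 with array weights. In TA, leaving out 1 array gave log2 fold changes of -0.16 to 0.043 for Pax7, -0.16 to 0.21 for Myf5, -0.14 to 0.25 for Megf10, -0.20 to 0.15 for Chrdl2, -0.024 to 0.53 for Adgre1, -0.091 to 0.54 for C1qa, -0.049 to 0.63 for Cd3d, -0.022 to 0.40 for Col1a1, -0.070 to 0.92 for Lum, -1.33 to 0.17 for Pmp22, -0.056 to 0.73 for Ptprc and -0.19 to 1.14 for S100a8. In gastrocnemius it gave -0.12 to 0.057 for Pax3, -0.038 to 0.025 for Cdh15 and -0.053 to 0.25 for Pdgfrb. For the difference of the comparisons it gave -0.32 to 0.27 for Myod1, -0.044 to 0.68 for Mymk and -0.069 to 0.41 for Myf6.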
